A study of Mus musculus with 5 samples.

Results

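The genes described here are the 7 genes of MHC class II antigen presentation that were read in this series: H2-Aa, H2-Ab1, H2-Eb1, H2-DMa, H2-DMb1, Cd74 and Ciita. They were chosen by symbol from the 31053 genes of the deposited matrices, and all 7 were detected in every library. The question asked of them was which cells of a CD4 T cell sort held their transcripts, and whether their levels differed between knockout and control mice. All 5 libraries came from injured kidneys of 10-week-old mice, taken after the blood supply of 1 kidney had been stopped and restored. The sort used antibodies to CD45, TCRβ, CD4, CD25 and CD127, and the RNA of single cells was read from its 3′ end on droplets. The 3 knockout libraries were labelled Il1rl1fl/fl Foxp3YFP-Cre, and the 2 control libraries Il1rl1fl/fl. Both groups carry the loxP-flanked Il1rl1 gene, which encodes ST2, the receptor for IL-33. The knockout mice alone carry a Cre recombinase made under Foxp3, the transcription factor that defines regulatory T cells, so loss of Il1rl1 and presence of the Cre allele cannot be told apart. Whether the libraries came from different animals is not in the labels, so the p-values measure only the spread between libraries, which may be technical.

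MHC class II molecules are pairs of an α and a β chain that carry peptides of ingested proteins to the cell surface, where CD4 T cells read them. H2-Aa and H2-Ab1 encode the α and β chains of the mouse molecule I-A, and H2-Eb1 encodes the β chain of I-E. Cd74, the invariant chain, fills the groove of new class II molecules and guides them to endosomes, and H2-DMa and H2-DMb1 encode the chains of H2-DM, which exchanges the last remnant of Cd74 for peptide. Ciita is the coactivator that switches the whole group on. Macrophages, dendritic cells and B cells are the usual holders of these genes, and mouse T cells make little or none of them.

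Ciita does not bind DNA itself but is recruited by factors that sit on a row of short promoter boxes, of which the last, the Y box, carries the letters GATTGG on 1 strand. Promoter stretches are shown for class II genes in which such an arrangement was found by its letters. The values below show how unequally genes that share it were held by macrophages and B cells. The stretches were taken from RefSeq's annotation on build GRCm38.p6. Their windows of 300 bases run from 250 bases before to 50 bases after each gene's start. Capitals mark the letters GNAAC and, after 24 to 30 further bases, the letters GATTGG.
H2-Aa: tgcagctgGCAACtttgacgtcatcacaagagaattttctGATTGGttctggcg
H2-Eb1: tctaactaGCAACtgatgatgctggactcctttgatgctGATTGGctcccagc
H2-DMb1: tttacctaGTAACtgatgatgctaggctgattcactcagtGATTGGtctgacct
H2-Oa: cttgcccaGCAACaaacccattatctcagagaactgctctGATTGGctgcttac
H2-Ob: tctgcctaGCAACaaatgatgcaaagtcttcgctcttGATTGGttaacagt
H2-Eb2: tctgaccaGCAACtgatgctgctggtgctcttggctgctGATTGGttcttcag
The H2-Aa stretch lies on the minus strand at chr17:34287859-34287912, and its pair of boxes begins 81 bases before the start. The others lie on the plus strand: H2-Eb1 at chr17:34305768-34305820, H2-DMb1 at chr17:34153089-34153142, H2-Oa at chr17:34092295-34092348, H2-Ob at chr17:34238810-34238860 and H2-Eb2 at chr17:34325535-34325587. The letters between GNAAC and GATTGG number 27 in H2-Aa, H2-DMb1 and H2-Oa, 26 in H2-Eb1 and H2-Eb2, and 24 in H2-Ob. Of all 32851 promoter windows of the table, searched on both strands, 153 (0.466%) held the pair, whereas 5292 (16.1%) held GATTGG alone or in a pair. The pattern was chosen after these sequences had been looked at, so the shares describe it and test nothing. In the windows of H2-DMa and of H2-DMb2, a near-identical neighbour of H2-DMb1, the pair was not found. The boxes were matched by letters alone. For H2-Ab1, Cd74 and Ciita no promoter is shown.

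In the GENCODE M21 annotation of the same build, 5 of the 7 genes lie together on chromosome 17, in the major histocompatibility complex. From low to high position they are H2-DMa (ENSMUSG00000037649) at chr17:34119541-34139101, H2-DMb1 (ENSMUSG00000079547) at chr17:34153072-34160230, H2-Ab1 (ENSMUSG00000073421) at chr17:34257689-34269419, H2-Aa (ENSMUSG00000036594) at chr17:34282744-34287823 and H2-Eb1 (ENSMUSG00000060586) at chr17:34305867-34316674. Cd74 (ENSMUSG00000024610) lies at chr18:60803848-60812652, and Ciita (ENSMUSG00000022504) at chr16:10480059-10528418. H2-Aa is read from the minus strand and the other 6 from the plus strand.

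Of 40778 barcodes, 38417 had at least 500 genes and under 10% mitochondrial molecules and were kept. Total molecules (UMIs, unique molecular identifiers, which count each captured RNA once) came to between 31104939 and 60421178 in knockout libraries, against 152275841 and 46383793 in control libraries, so that control library 1 was the deepest by far. Library pairs shared between 2 and 39 barcodes. Cells were gated by raw UMIs of genes other than the 7. The Foxp3 gate (at least 1 Foxp3 UMI) held 2995 cells, the Foxp3-negative Cd4 gate (no Foxp3 UMI and at least 1 of Cd4) 26978, the macrophage gate (at least 5 UMIs of C1qa, C1qb and C1qc in all) 3024, and the B cell gate (at least 3 UMIs of Cd79a, Cd79b and Ms4a1 in all) 505. No doublet caller was run, and the gates overlap. Of the macrophage gate's cells 2854 also held a UMI of Cd3d, Cd3e, Cd3g or Trac, genes of the T cell receptor complex, and 2658 stood in a T gate as well. Of the 505 cells in the B cell gate 441 held such a T cell UMI. Levels are given as UMIs per 1000000 UMIs of a gate's cells (CPM), summed in each library. The 6 T cell markers summed to between 3101 and 3387 CPM in the macrophage gate of knockout libraries and to 3140 and 3455 in that of control libraries, not far below the 3336 to 3878 of the Foxp3 gate. The macrophage and B cell gates therefore held mostly droplets with transcripts of more than 1 cell type, and the names of the gates stand for their rules alone. Free RNA and captured pairs of cells as sources were not tested.

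The gene targeted in the knockout was not uniformly lower in the knockout libraries. In the Foxp3 gate, Il1rl1 stood at 128, 53.9 and 51.6 CPM in the knockout libraries, against 74.2 and 54.8 in the control libraries. Knockout libraries 2 and 3 thus lay below both control libraries there, by little against control library 2, and knockout library 1 lay above both. In the Foxp3-negative Cd4 gate it stood at 57.6, 35.3 and 24.1 in knockout, against 8.87 and 9.04 in control. Since 3′ reads that fall beyond the deleted exons check nothing, and the labels do not name the floxed exons, "knockout" means the label throughout.

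Class II transcripts sat in a small minority of the sorted cells. When each cell was put into 1 class, the macrophage gate held 67.6%, 73.2% and 85.7% of all UMIs of the 7 genes in the knockout libraries, against 34.7% and 66.9% in the control libraries, although it made up only 8.25%, 8.18% and 9.22% of the cells in knockout and 6.18% and 8.32% in control. A dendritic set, cells outside the macrophage and B cell gates with at least 2 UMIs of Flt3, Zbtb46, Cd209a, Clec9a and Xcr1, held 19.3%, 15.1% and 3.02% in knockout, against 48.5% and 17.4% in control. The B cell gate held 7.89%, 1.89% and 3.45% in knockout, against 11.3% and 7.64% in control. In control library 1 the dendritic set was therefore the leading holder, with 3.55% of the cells, while in each of the other 4 libraries the macrophage gate was.

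What remained for T cells outside these sets was little. Cells of the Foxp3 gate that stood in none of the other sets held 0.837%, 1.82% and 0.813% of the 7 genes' UMIs in knockout, against 0.986% and 1.39% in control. The Foxp3-negative Cd4 cells, 65.8%, 61.8% and 57.9% of knockout cells and 69.3% and 56.8% of control cells, held 3.84%, 6.82% and 5.31% in knockout, against 4.10% and 5.45% in control. These shares were taken of between 46872 and 108213 UMIs of the 7 genes in knockout libraries, against 323702 and 90581 in control libraries.

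**Figure D1:**
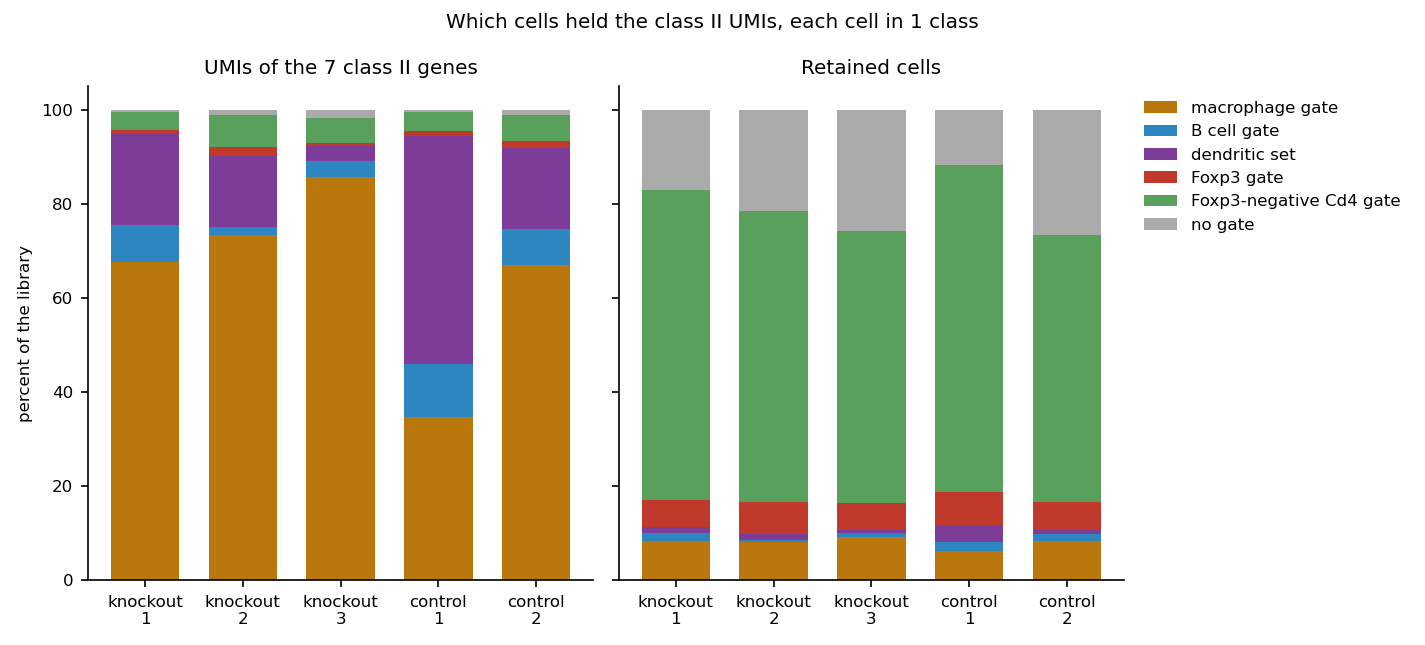
Share in percent of all UMIs of the 7 class II genes (one panel) and of retained cells (the other panel), stacked by class of cell, for knockout libraries 1 to 3 and control libraries 1 and 2; each cell is counted in 1 class. The macrophage gate holds between 34.7% and 85.7% of the UMIs with between 6.18% and 9.22% of the cells, and the dendritic set stands out in control library 1 with 48.5%.

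Among the gates, the α and β chain genes had their highest summed levels in the dendritic set in at least 4 of the 5 libraries and lower ones in the macrophage and B cell gates. H2-Aa, the I-A α chain, stood in the dendritic set at 2934, 1836 and 791 CPM in knockout libraries, against 2822 and 2447 in control libraries. In the macrophage gate it stood at 1662, 1178 and 1097 in knockout, against 1423 and 1467 in control. In the B cell gate it stood at 852, 1280 and 1240 in knockout, against 1436 and 1362 in control. A minority of cells carried the dendritic sums: the 7 genes made up a median of 8.39, 10.8 and 0.355 of each 10000 UMIs of a cell in knockout libraries, against 14.5 and 56.3 in control, which was below the macrophage gate's median in every library, and 19.6%, 23.2% and 50% of dendritic-set cells in knockout, against 11.0% and 16.8% in control, had no UMI of the 7. Knockout library 3, with 36 cells in the dendritic set, was low there, and knockout library 1 was low in the B cell gate. The macrophage and B cell gates overlapped in H2-Aa over the 5 libraries. H2-Ab1, the I-A β chain, stood at 1137, 950 and 784 CPM in the macrophage gate of knockout libraries, against 1075 and 1179 in control, and at 529, 983 and 729 in the B cell gate of knockout libraries, against 907 and 909 in control. H2-Eb1, the I-E β chain, stood at 1469, 1091 and 1001 in the macrophage gate of knockout libraries, against 1310 and 1459 in control, and at 657, 1024 and 980 in the B cell gate of knockout libraries, against 1097 and 1042 in control. For all 3 chains knockout library 1 had the lowest level in the B cell gate and the highest or second highest in the macrophage gate. These levels are of summed gates, so fewer cells that express a gene and less RNA of it per cell cannot be told apart.

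Levels of different genes are not ranked here, since 3′ UMIs are not given per length. H2-DMa, the H2-DM α chain, stood in the macrophage gate at 119, 90.9 and 114 CPM in knockout libraries, against 91.5 and 112 in control, and in the B cell gate at 71.0, 92.3 and 124 in knockout, against 119 and 122 in control. H2-DMb1, its β chain, stood in the macrophage gate at 118, 104 and 115 in knockout, against 110 and 124 in control, and in the B cell gate at 36.3, 81.0 and 73.6 in knockout, against 77.1 and 74.6 in control. Its levels in the macrophage gate lay above those in the B cell gate in every library, whereas those of H2-DMa overlapped. Ciita, the coactivator, stood in the macrophage gate at 80.9, 65.7 and 60.2 in knockout, against 75.2 and 70.1 in control, and in the B cell gate at 67.2, 94.1 and 82.8 in knockout, against 143 and 106 in control. Cd74, the invariant chain, stood in the macrophage gate at 3495, 3063 and 2643 in knockout, against 3603 and 3560 in control, and in the B cell gate at 2871, 3499 and 3440 in knockout, against 4200 and 4028 in control. Cd74 and Ciita were thus higher in the B cell gate in 4 of the 5 libraries, knockout library 1 being the exception.

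Both gates held T cell RNA, as the marker sums above show. In the few macrophage-gate cells with no T cell UMI (between 24 and 26 cells in knockout libraries, against 32 and 62 in control), H2-Aa stood at 4817, 3788 and 3997 CPM in knockout, against 7810 and 3760 in control, and Cd74 at 10536, 9118 and 9080 in knockout, against 22638 and 9814 in control. These levels were several-fold above those of the whole gate in each library. The cells were also shallow, with a median of 2470, 2229 and 1875 UMIs in knockout, against 3142 and 1922 in control. In the whole gate the median was 15938, 12128.5 and 11903 in knockout, against 19607.5 and 7664 in control. A fixed number of C1q UMIs is a larger share of a shallow cell, and its part in these levels was not tested.

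**Figure D2:**
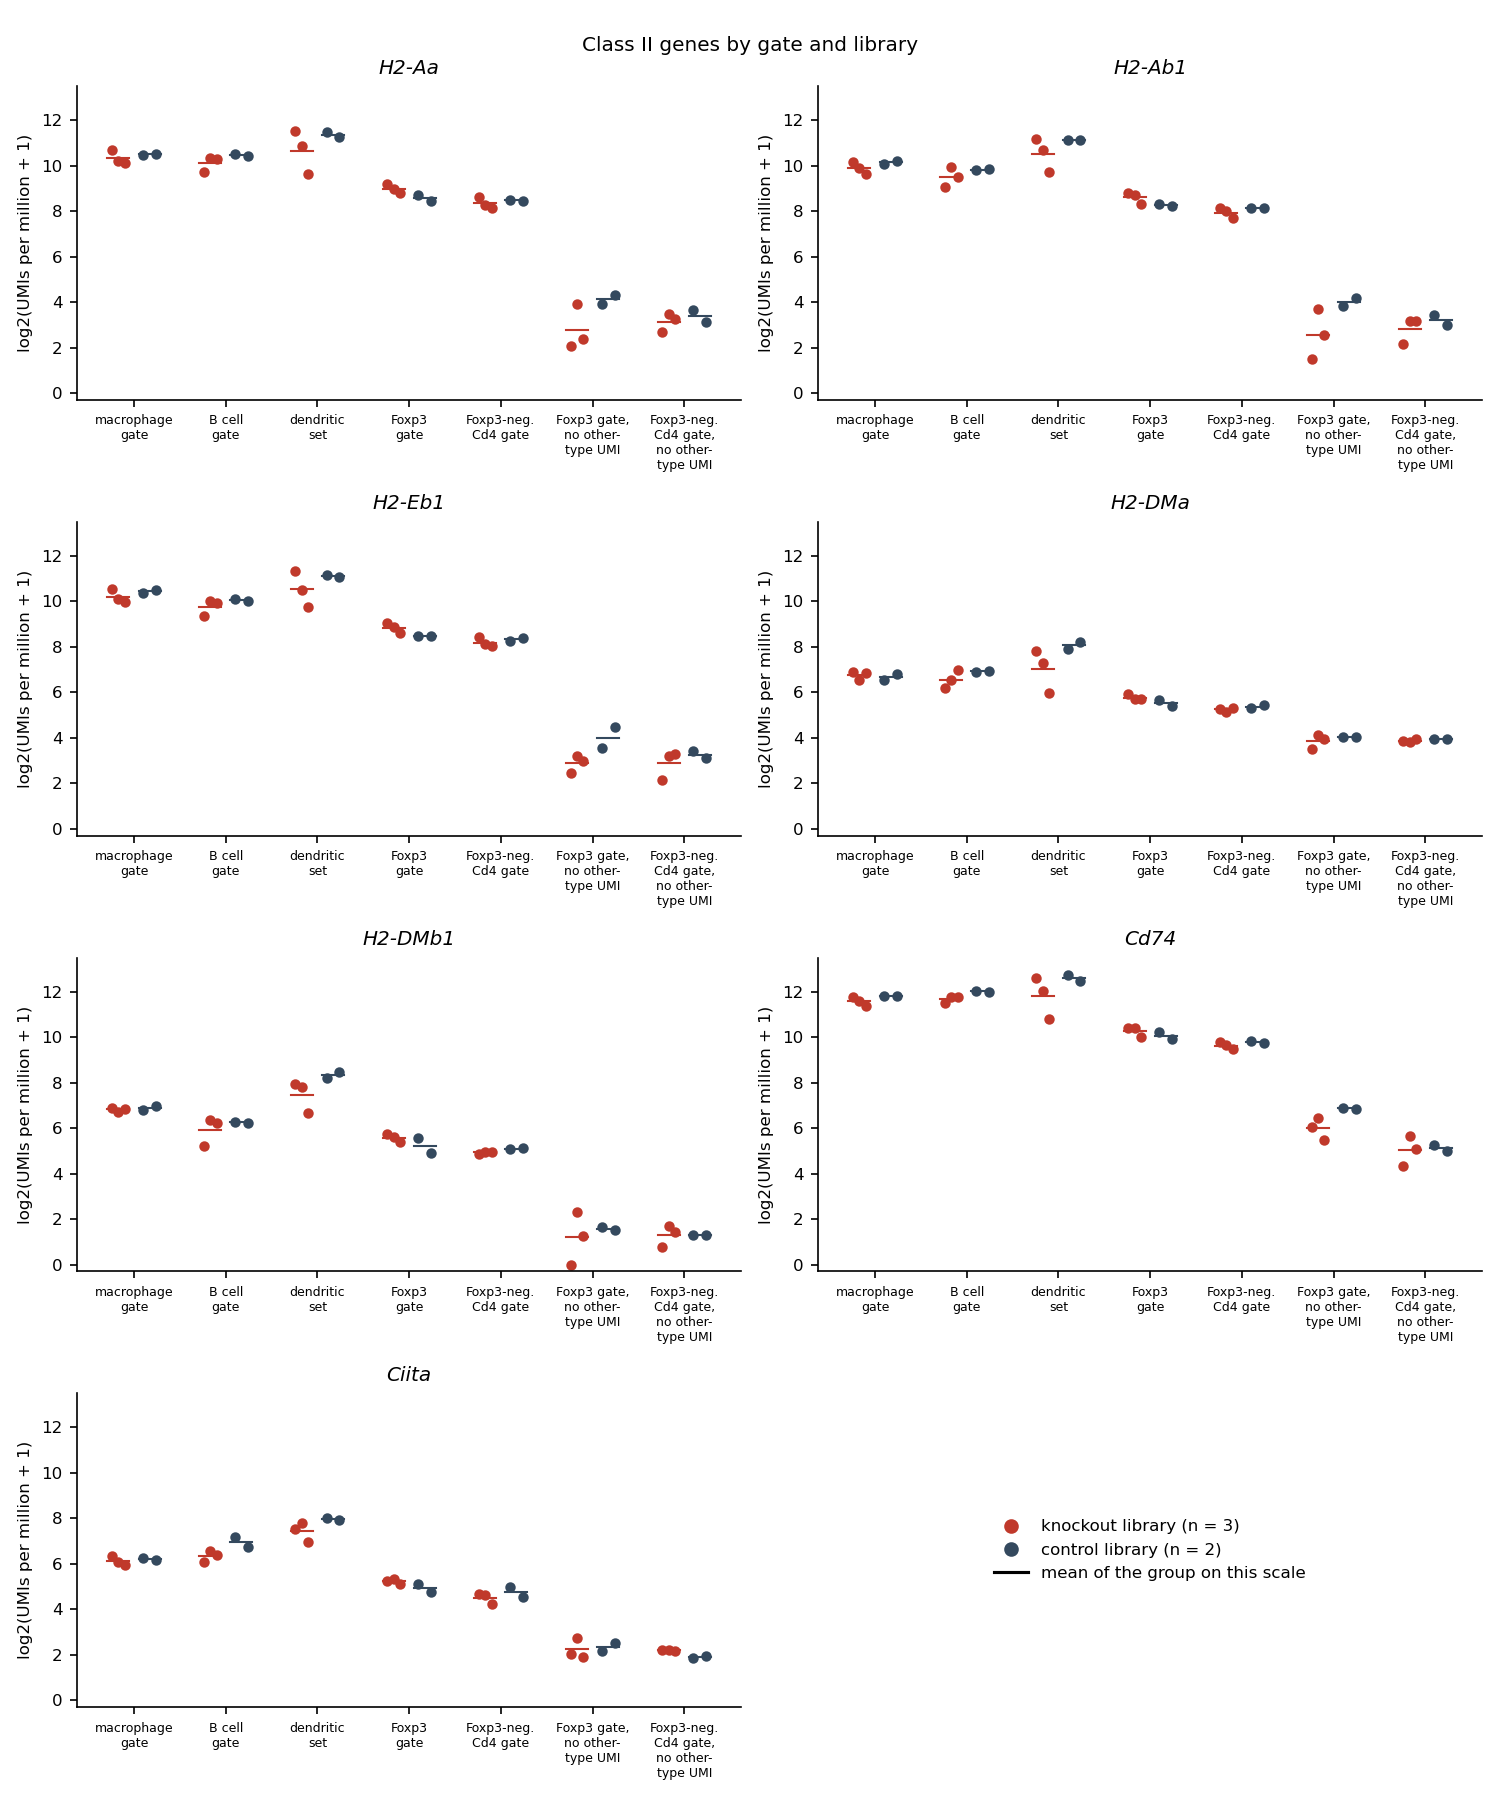
Level of each of the 7 genes on a log2(CPM + 1) scale in 7 sets of cells, with knockout libraries (red, n = 3) left of control libraries (dark, n = 2) and a bar at each group's mean on that scale. Within libraries the levels drop from the macrophage, B cell and dendritic sets to the T gates. The exception is H2-DMb1 in knockout library 1, at 36.3 CPM in the B cell gate and 53.2 in the Foxp3 gate. The levels drop again in T gate cells without any UMI of the other types' defining genes, by the smallest step for H2-DMa. In those cells of the Foxp3 gate H2-Aa lies between 3.14 and 19.1 CPM.

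Macrophages and B cells were next compared within libraries, with cells that met both gates left out. Relative to the B cell gate, the macrophage gate was higher in 3 of the 7 genes and lower in 2 at an adjusted p under 0.05 in edgeR's quasi-likelihood test with Benjamini-Hochberg adjustment. Over all 12322 genes tested, 19.4% passed, 11.0% higher and 8.44% lower in the macrophage gate. Higher were H2-DMb1 by 1.19 on the log2 scale (SE 0.18, adjusted p = 7.60e-05), H2-Eb1 by 0.58 (SE 0.10, adjusted p = 2.58e-04) and H2-Ab1 by 0.48 (SE 0.09, adjusted p = 6.84e-04), each in 5 of 5 libraries. With the overlap left out, H2-DMb1 stood at 121, 103 and 113 CPM in the macrophage gate of knockout libraries and 108 and 122 in that of control libraries, against 25.9, 54.8 and 21.0 in the B cell gate of knockout libraries and 66.1 and 46.6 in that of control libraries. H2-DMb1 and H2-DMb2 are near-identical copies, so reads may have been split between them, and the value of each is uncertain.

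Lower in the macrophage gate were Ciita and Cd74. Ciita had a log2 fold change of -0.57 (SE 0.15, edgeR adjusted p = 0.0138) and was lower in 4 of 5 libraries. The call was lost without control library 1 (log2 fold change -0.31, adjusted p = 0.234) and without knockout library 2 (-0.54, adjusted p = 0.0598). Cd74 had a log2 fold change of -0.17 (SE 0.06, adjusted p = 0.0491), also lower in 4 of 5 libraries, and lost its call without any 1 of 4 libraries, with adjusted p up to 0.302 without control library 1. In cells with no T cell UMI Cd74 was higher in the macrophage gate in 4 of the 5 libraries: against the values of that gate printed above, it stood in the B cell gate at 8817, 9734 and 7578 CPM in knockout (11, 1 and 6 cells) and at 8422 and 9229 in control (24 and 22 cells), too few cells for a test. Both sets of cells with no T cell UMI were shallower than their whole gates. H2-Aa had a log2 fold change of 0.21 (adjusted p = 0.155), with the macrophage gate higher in 5 of 5 libraries. H2-DMa had one of -0.04 (adjusted p = 0.925), with the macrophage gate higher in 2 of 5. The genes thus did not move as 1 block between these gates, and the median over the 7 was 0.21, beside 0.01 over all genes tested.

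Among the other genes of the pathway were some with far lower levels in the macrophage gate. Of 24 listed genes 21 were matched and tested, of which 5 were higher in the macrophage gate and 7 lower, with a median log2 fold change of -0.14. The genes that were lower included H2-DMb2 at -5.22 (edgeR adjusted p = 4.27e-11), H2-Eb2 at -5.25, H2-Ob at -5.20 and H2-Oa at -3.25. H2-Oa and H2-Ob encode the chains of H2-DO, the inhibitor of H2-DM. H2-Ob stood at 4.93, 2.60 and 2.22 CPM in the macrophage gate of knockout libraries and 5.36 and 3.10 in that of control libraries, against 93.1, 164 and 102 in the B cell gate of knockout libraries and 153 and 128 in that of control libraries. H2-DMb2 stood at 8.40, 4.20 and 7.84 in the macrophage gate of knockout libraries and 5.94 and 2.02 in that of control libraries, against 125, 259 and 168 in the B cell gate of knockout libraries and 214 and 191 in that of control libraries. For both genes every macrophage-gate value lay below every B cell value. The stretches of H2-Oa, H2-Ob and H2-Eb2 printed above hold the same pair of boxes as those of H2-Aa, H2-Eb1 and H2-DMb1. Cd40, the receptor by which T cells license presenting cells, was also lower in the macrophage gate (-2.45), as were March1, a ubiquitin ligase that removes class II from the surface (-2.00), and Rfx5, a DNA-binding partner of Ciita (-0.54, adjusted p = 0.0499).

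Higher in the macrophage gate were the endosomal proteases that cut Cd74 and antigen, namely Ctsl (1.87), Ctsb (1.67), Lgmn (1.64) and Ctss (1.20), and the ligase March8 (1.64, adjusted p = 0.00636). Of 9 genes of the interferon-γ input, which induces Ciita, Ifngr1 was higher (0.33) and Irf8 lower (-0.77). Of 9 MHC class I genes 4 were higher (H2-K1, B2m, Nlrc5 and Psmb9) and 0 lower.

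**Figure D3:**
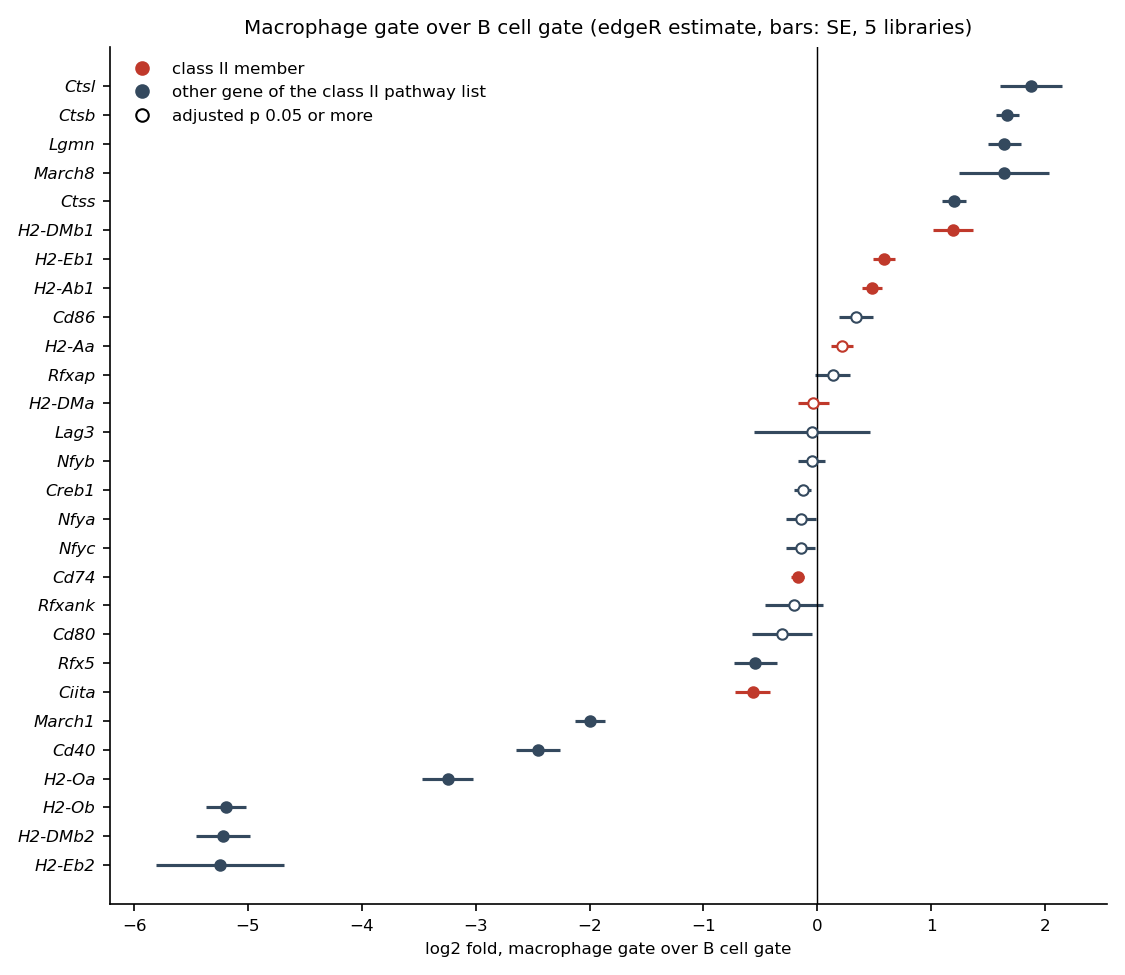
Log2 fold change of the macrophage gate over the B cell gate within libraries (5 pairs, bars are SE) for the 7 genes and the other listed genes of the pathway; open points have an edgeR adjusted p of at least 0.05. The 7 genes lie between -0.57 and 1.19, whereas H2-DMb2, H2-Eb2 and H2-Ob lie below -5.

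Within the macrophage gate the load of single cells varied widely. The 7 genes made up a median of 57.3, 54.1 and 46.1 of each 10000 UMIs of a cell in knockout libraries, against 44.8 and 58.5 in control libraries. The 90th percentile of cells was 33.8, 12.4 and 25.7 times the 10th in knockout, against 31.4 and 56.2 in control. B cells were more uniform, with ratios of 15.3, 3.83 and 6.90 in knockout, against 6.76 and 6.31 in control. Cells with a Ciita UMI held more of the other 6 genes: in macrophage-gate cells thinned to 2000 UMIs, those with one held 2.13, 1.88 and 1.92 times the UMIs of those without in knockout libraries, and 2.25 and 2.50 times in control libraries. In the B cell gate the ratio was 1.39, 1.30 and 0.689 in knockout, against 1.43 and 1.23 in control. Cells of a library share its depth and free RNA, and the ratios are descriptions.

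The genes whose pattern was most like that of the 6 members other than Ciita were named by Pearson correlation. For the library-by-gate sums, cells that met more than 1 gate were left out. The macrophage sums then rested on 45, 62 and 56 cells in knockout, against 57 and 142 in control. The B cell sums rested on 11, 4 and 11 cells in knockout, against 40 and 43 in control. Across the 20 library-by-gate sums, which share libraries and cells' T cell RNA, the 10 closest of 8339 genes included Ly86 (r = 0.987), Ctsh (0.984), Unc93b1, Fgd2, Hdac9, Rnf130, Plekho1, Ifngr2 and Lmo2 (0.947). Across single cells of the macrophage gate, as the mean over 5 libraries, the closest of 8911 were Ctss (0.599, between 0.470 and 0.728 by library), Cst3 (0.594), Psap (0.554) and C1qb (0.554), followed by C1qa, Cybb, Plbd1, Fcer1g, C1qc and Ly86 (0.457). The C1q genes set this gate, and its cells also held T cell RNA, whose part in these correlations was not tested.

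In the T gates, the 7 genes came mainly from cells that also carried transcripts of presenting cells. In the Foxp3 gate, H2-Aa stood at 589, 507 and 437 CPM in knockout libraries, against 418 and 348 in control. Cd74 stood at 1347, 1338 and 1013 in knockout, against 1197 and 959 in control. In the Foxp3-negative Cd4 gate H2-Aa stood at 396, 307 and 282 in knockout, against 360 and 351 in control, and Cd74 at 881, 801 and 703 in knockout, against 896 and 863 in control. In the Foxp3 gate, cells that met the macrophage gate too were 14.0%, 16.8% and 18.3% of the cells in knockout, against 7.43% and 11.8% in control. They held 66.5%, 76.5% and 88.5% of that gate's class II UMIs in knockout, against 36.7% and 65.6% in control. Cells with no C1q, B cell or dendritic UMI were between 61.9% and 71.9% of the Foxp3 gate but held between 1.23% and 5.23% of its class II UMIs over the 5 libraries, and between 76.5% and 82.2% of the Foxp3-negative Cd4 gate with between 1.67% and 3.77%.

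In those cells the level of H2-Aa was lower by more than an order of magnitude in each library. It stood in them at 3.14, 14.0 and 4.14 CPM in the Foxp3 gate of knockout libraries, against 14.2 and 19.1 in control. In the Foxp3-negative Cd4 gate it stood at 5.35, 10.1 and 8.66 in knockout, against 11.5 and 7.75 in control. H2-DMb1 had no UMI in the Foxp3 gate of knockout library 1 and stood at up to 4.01 in the other libraries. H2-DMa differed less from the whole gates: it stood at 10.3, 16.3 and 14.5 in the Foxp3 gate of knockout libraries, against 15.5 in both control libraries, and at 13.4, 12.9 and 14.3 in the Foxp3-negative Cd4 gate of knockout libraries, against 14.5 and 14.3 in control. Its ratio to H2-Aa in the Foxp3-negative Cd4 gate was 2.50, 1.29 and 1.65 in knockout, against 1.27 and 1.84 in control, whereas in the macrophage gate it lay between 0.0643 and 0.104 over the 5 libraries, in the B cell gate between 0.0721 and 0.100, and in the dendritic set between 0.0765 and 0.122. The ratio in these T gate cells therefore lay above the range of each of the 3 presenting sets. Cd74 had a ratio to H2-Aa of 3.56, 4.97 and 3.73 in the Foxp3-negative Cd4 gate of knockout libraries and 3.21 and 3.99 in control, against 2.10 to 2.60 in the macrophage gate and 2.73 to 3.37 in the B cell gate, which it overlapped. In the dendritic set it was 2.10 to 2.39. In these cells of the Foxp3 gate it was 6.21 in knockout library 2, and 8.30 and 5.94 in control, above all of those ranges. These 3 ratios rest on 56, 128 and 52 H2-Aa UMIs. Knockout libraries 1 and 3 held 7 and 6, too few for a ratio.

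The share of cells with any UMI of the 7 genes depends on depth, so each cell was thinned to 2000 UMIs and shallower cells were left out (between 14 and 64 cells of the Foxp3 gate per knockout library, against 7 and 81 per control library). Of the Foxp3 gate 32.6%, 38.2% and 30.1% of knockout cells then had one, against 32.4% and 34.8% of control cells. Without thinning the shares were 56.5%, 52.4% and 42.8% in knockout, against 71.3% and 46.4% in control, at median depths of 12019, 7202 and 7053 UMIs in knockout, against 16664 and 5429 in control. The thinned groups overlapped, with a mean difference of 0.0385 percentage points (two-sided exact permutation p = 1, where the smallest p that 3 against 2 libraries allow is 0.2). In the Foxp3-negative Cd4 gate the thinned share was 19.0%, 21.7% and 20.3% in knockout, against 22.0% and 21.9% in control (exact permutation p = 0.2), and in the macrophage gate 93.2%, 95.3% and 92.0% in knockout, against 92.9% and 89.3% in control (exact permutation p = 0.4). In the B cell gate it was 97.6%, 100% and 100% in knockout, against 95.5% and 96.9% in control (exact permutation p = 0.2).

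The thinned share of the Foxp3 gate lay above that of the Foxp3-negative Cd4 gate as a whole in each of the 5 libraries, which does not hold for every subset of that gate. The thinned cells of the Foxp3 gate had median depths of 12529, 7907 and 8054 UMIs in knockout, against 16773 and 6172.5 in control, and those of the Foxp3-negative Cd4 gate 8252, 5090 and 4920 in knockout, against 14412 and 5007 in control. With cells that held a C1q or B cell UMI left out, the Foxp3 gate had 17.5%, 17.8% and 11.1% in knockout, against 24.3% and 19.1% in control, and the Foxp3-negative Cd4 gate 7.34%, 9.94% and 9.02% in knockout, against 13.8% and 9.17% in control. Whether cells of the Foxp3-negative Cd4 gate express the genes themselves was not tested.

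Between the T gates, all 7 genes were higher in the Foxp3 gate than in the Foxp3-negative Cd4 gate of the same libraries, by edgeR with Benjamini-Hochberg adjustment. The background was 19.9% of 13949 tested genes called, with 11.6% of the tested genes called higher in the Foxp3 gate. The log2 fold changes lay between 0.35 for H2-DMa and 0.44 for Cd74, H2-DMb1 and Ciita, with a median of 0.40, beside -0.00 over all genes. Cd74 had the smallest adjusted p (0.44, SE 0.07, adjusted p = 0.00151), and H2-DMb1 the largest (SE 0.13, adjusted p = 0.0326). Markers of other cell types moved with the 7: the 10 macrophage markers summed to 1439, 1596 and 2238 CPM in the Foxp3 gate of knockout libraries and 646 and 1310 in that of control libraries, against 933, 1034 and 1430 in the Foxp3-negative Cd4 gate of knockout libraries and 526 and 1208 in that of control libraries. The 7 dendritic markers summed to between 32.1 and 84.6 in the Foxp3 gate and between 18.3 and 66.6 in the Foxp3-negative Cd4 gate, and both sums were higher in the Foxp3 gate in 5 of 5 libraries. Without 1 library at a time, 5 of the 7 lost the call in at least 1 fit, and Cd74 and H2-Eb1 did not. H2-Aa lost it without any 1 of the knockout libraries, with adjusted p up to 0.0692. H2-DMb1 lost it without any 1 of the knockout libraries and without control library 1, with adjusted p up to 0.123. H2-DMa and Ciita lost it without knockout library 1 or 2, and H2-Ab1 without knockout library 1.

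This difference changed once cells with transcripts of other types were removed. Without cells that held a C1q or B cell UMI, 5 of the 7 passed, at a background of 18.5% called and 10.4% higher, and H2-Eb1 (0.64, adjusted p = 0.0517) and H2-Ab1 (0.61, adjusted p = 0.0663) did not. Without cells that held a C1q, B cell or dendritic UMI, a setting added after the data had been seen, only Cd74 of the 7 passed, at a background of 19.3% called and 10.9% higher, and it was higher by 1.34 (SE 0.16, edgeR adjusted p = 5.29e-05). The other 6 had log2 fold changes between 0.03 and 0.40 and adjusted p between 0.237 and 0.893. Cd74 stood in these cells at 65.1, 87.1 and 44.2 CPM in the Foxp3 gate of knockout libraries and 118 and 114 in that of control libraries, against 19.1, 49.9 and 32.3 in the Foxp3-negative Cd4 gate of knockout libraries and 36.8 and 31.0 in that of control libraries. The Foxp3 gate was thus higher in each library. The thinned share of cells with a Cd74 UMI was 10.5%, 13.6% and 4.85% in the Foxp3 gate of knockout libraries and 12.3% and 12.4% in that of control libraries, against 2.83%, 5.05% and 3.51% in the Foxp3-negative Cd4 gate of knockout libraries and 5.38% and 3.62% in that of control libraries. In knockout library 3 the exact binomial 95% intervals, which cover counting error only, were 2.35% to 8.75% and 2.83% to 4.29%, and overlapped. Cd74 was compared with the Foxp3-negative Cd4 gate as a whole, and the Foxp3 gate did not lie above every subset of that gate in every library. Ighm, a B cell gene outside the 3 used to remove cells, moved with Cd74: it stood at 393, 238 and 264 in the Foxp3 gate of knockout libraries and 379 and 372 in that of control libraries, against 142, 106 and 150 in the Foxp3-negative Cd4 gate of knockout libraries and 177 and 193 in that of control libraries. Of the 8 B cell markers, Cd79a, Cd79b and Ms4a1 were at 0 in these cells by construction, and 2 were detected in every library of the Foxp3 gate. The summed macrophage markers stood at 142, 130 and 192 in the Foxp3 gate of knockout libraries and 124 and 75.1 in that of control libraries. In the Foxp3-negative Cd4 gate they stood at 54.6, 147 and 110 in knockout, against 129 and 113 in control. Unlike Cd74 and Ighm, they were thus lower in the Foxp3 gate in knockout library 2 and in both control libraries. Their part in the Cd74 difference was not tested.

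**Figure D4:**
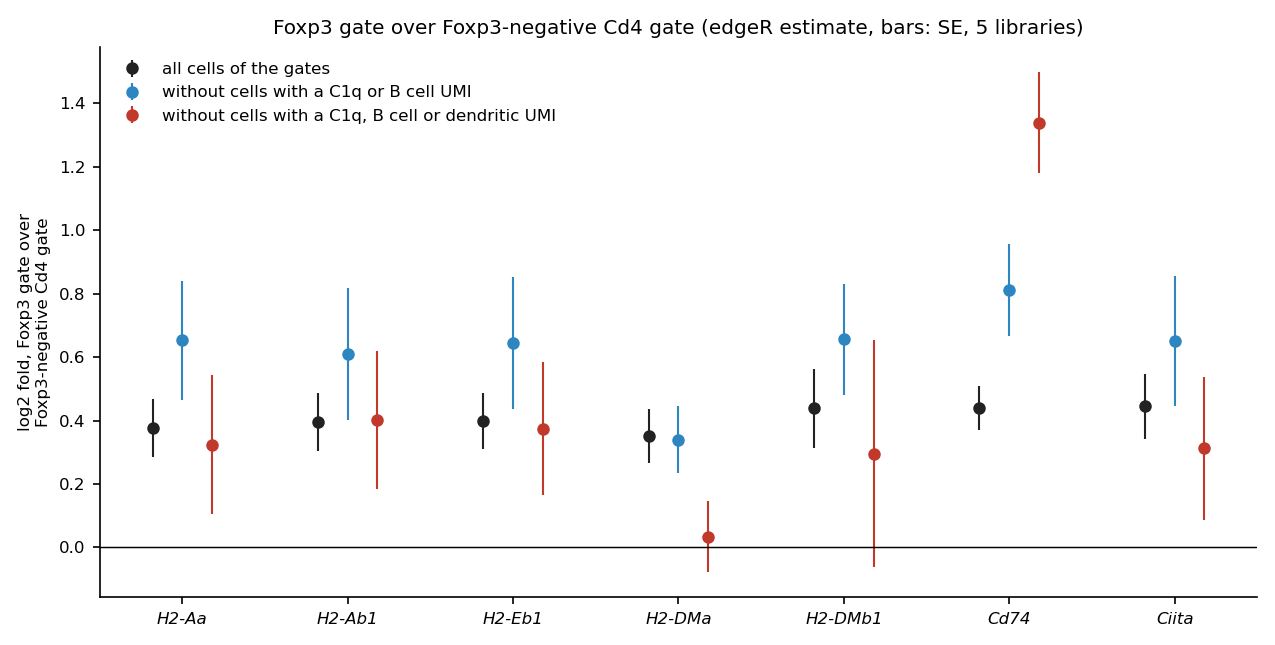
Log2 fold change of the Foxp3 gate over the Foxp3-negative Cd4 gate within libraries (5 pairs, bars are SE) for the 7 genes, in all gated cells, without cells that held a C1q or B cell UMI, and without cells that also held a dendritic UMI. All 7 lie between 0.35 and 0.44 in the whole gates, and in the last setting Cd74 lies at 1.34 while the others lie between 0.03 and 0.40.

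Of the other 21 pathway genes tested in the whole gates, 8 were higher in the Foxp3 gate and 1 lower, with a median of 0.27. Higher were the costimulatory ligands Cd80 (1.64) and Cd86 (0.22), Cd40 (0.98), Lag3, a T cell receptor for class II (0.65), the proteases Lgmn (0.80) and Ctss (0.28), H2-Oa (0.74) and March1 (0.45). Lower was Nfya, a subunit of the factor that binds the Y box (-0.20). Without cells that held a C1q, B cell or dendritic UMI, Cd80, Cd40, Lag3, Lgmn, Ctss and H2-Oa were higher in 5 of 5 libraries. There Cd86 and March1 were higher in 3 of 5, and Nfya in 0 of 5. Of the interferon-γ input, Ifngr1, Ifngr2, Irf8 and Socs1 were higher and Ifng, the cytokine itself, was lower (-0.99), and of the class I genes 0 were higher and 1, Psmb8, was lower (-0.15).

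Between knockout and control, none of the 7 genes passed in any gate. edgeR with Benjamini-Hochberg adjustment called 0 of 11519 genes in the Foxp3 gate (0%, 752 at an unadjusted p under 0.05, 48 by DESeq2), 0 of 13959 in the Foxp3-negative Cd4 gate (0%, 685 and 58), 0 of 12005 in the macrophage gate (0%, 433 and 22), 0 of 9194 in the B cell gate (0%, 411 and 3) and 0 of 15245 over all retained cells (0%, 899 and 122). None of the 7 was among DESeq2's calls. A p above the threshold with 3 and 2 libraries does not show that the levels were alike.

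In the Foxp3 gate, all 7 genes had positive values for knockout over control. H2-Aa had a log2 fold change of 0.38 (SE 0.15, edgeR adjusted p = 0.726), H2-Eb1 of 0.35 (SE 0.14, adjusted p = 0.734) and H2-Ab1 of 0.32 (SE 0.15, adjusted p = 0.823). H2-DMb1 had 0.27 (SE 0.20), Ciita 0.25 (SE 0.15), H2-DMa 0.18 (SE 0.13) and Cd74 0.16 (SE 0.16), with adjusted p between 0.898 and 0.959. The median was 0.27, beside -0.00 over all genes tested. For H2-Aa, H2-Ab1, H2-Eb1 and H2-DMa the levels of every knockout library lay above those of both control libraries, a pattern that 14.9% of all genes tested showed in that direction and 7.27% in the other. H2-Ab1 stood at 437, 419 and 318 CPM in knockout, against 312 and 301 in control, and H2-Eb1 at 535, 462 and 388 in knockout, against 354 and 350 in control. The highest control value and the lowest knockout value of H2-Ab1 differed by little.

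Summed macrophage markers were also higher in the knockout libraries of this gate. The 10 macrophage markers, all of them detected in the Foxp3 gate, summed there to between 1439 and 2238 CPM in knockout libraries, against 646 and 1310 in control libraries, while the 8 B cell markers summed to between 249 and 480 in knockout, against 508 and 1330 in control. C1qa stood at 172, 263 and 318 in knockout, against 44.8 and 198 in control. Among the knockout libraries, library 3 had the highest macrophage sum and the lowest H2-Aa (437). Knockout library 1 had the lowest sum and the highest H2-Aa (589). Control library 1 had a lower sum than control library 2 but more H2-Aa (418 against 348). The 7 dendritic markers summed in this gate to 59.6, 54.7 and 32.1 CPM in knockout, against 84.6 and 33.2 in control. Their order within each group was the same as that of H2-Aa. The part of any of these marker sums in the knockout values was not tested. Without cells that held a C1q, B cell or dendritic UMI, 5 of the 6 genes tested had negative values in place of positive ones: H2-Aa had -1.02, H2-Ab1 -1.12, H2-Eb1 -1.19, Cd74 -0.81 (adjusted p = 0.468) and H2-DMa -0.19, while Ciita had 0.07. H2-DMb1 was too low to be tested there. With dendritic cells kept in and only C1q and B cell UMIs removed, the 7 values lay between -0.75 and -0.00. H2-Aa stood there at 243, 130 and 3.93 CPM in knockout (6 UMIs in library 3), against 220 and 113 in control. For H2-Aa, H2-Ab1 and H2-Eb1 knockout library 1 lay above both control libraries and knockout library 3 below both. The 7 genes all overlapped between groups in that setting. The direction of the estimates in this gate thus turned when cells with C1q or B cell UMIs were removed together, with knockout library 3 low. The removal of each kind alone was not tested.

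In the Foxp3-negative Cd4 gate all 7 values were negative, between -0.30 for Ciita (SE 0.19) and -0.15 for H2-Aa (SE 0.15), with edgeR adjusted p between 0.994 and 1.00 and a median of -0.19, beside 0.00 over all genes. H2-Ab1 and H2-DMb1 did not overlap between groups, a pattern that 6.38% of genes showed in that direction and 12.4% in the other. H2-DMb1 stood between 28.1 and 30.2 CPM in knockout, against 32.4 and 34.2 in control, and H2-Ab1 at 278, 252 and 207 in knockout, against 280 and 284 in control. The spread within each group was wider than the gap between the groups for H2-Ab1, and narrow for both groups of H2-DMb1.

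In the macrophage gate 6 of the 7 had negative values, between -0.28 for H2-Ab1 (SE 0.16) and -0.11 for H2-DMb1 (SE 0.11), and H2-DMa had 0.05 (SE 0.15), with all edgeR adjusted p at 1.00. Cd74 was the one gene without overlap, with 2643 to 3495 CPM in knockout, against 3560 and 3603 in control, which 4.96% of genes showed in that direction and 12.9% in the other. Without cells that held a T cell UMI the 7 values lay between -0.90 and -0.06.

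In the B cell gate all 7 values were negative. Ciita, the coactivator, had the largest, with -0.66 (SE 0.19, unadjusted p = 0.00576 in edgeR's quasi-likelihood test, adjusted p = 0.963), and the other 6 lay between -0.38 for H2-DMa and -0.29 for H2-Eb1. H2-Aa, H2-Eb1, Cd74 and Ciita did not overlap between groups, beside 9.08% of all genes in that direction and 6.66% in the other. These knockout libraries had 82, 44 and 43 cells in the gate, against 200 and 136 in control, so Ciita rested on few cells. Markers of other types also differed without overlap in this gate: the 7 dendritic markers, of which 1 was detected in every library, summed to 9.75, 15.1 and 25.3 CPM in knockout, against 66.6 and 52.8 in control, and the 10 macrophage markers to 979, 1783 and 2410 in knockout, against 670 and 829 in control. Their part in the values of the 7 genes was not tested. Over all retained cells the values lay between -0.31 for Ciita and -0.18 for H2-Aa, and H2-DMa and H2-DMb1 did not overlap, beside 5.94% of genes lower in that way and 14.8% higher.

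**Figure D5:**
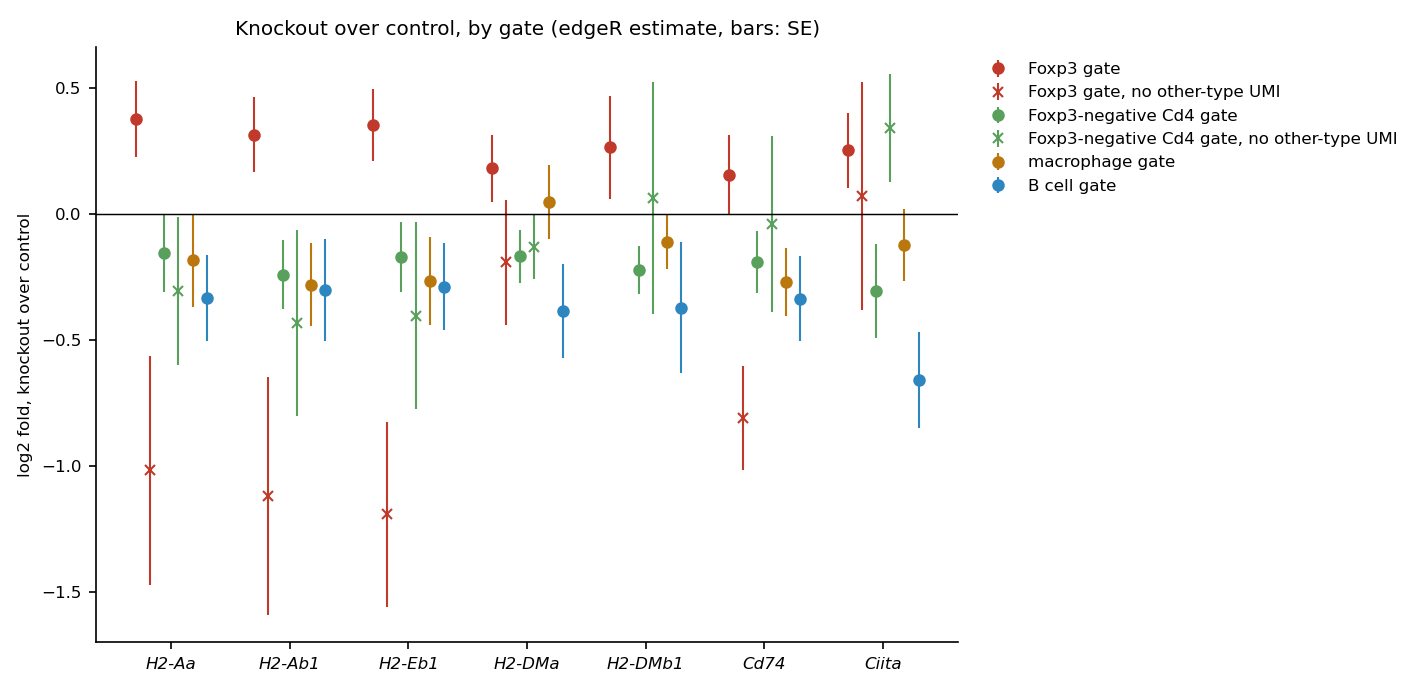
Log2 fold change of knockout over control (3 against 2 libraries, bars are SE) for the 7 genes in 6 sets of cells. The values of the whole Foxp3 gate lie between 0.16 and 0.38, those of the other whole gates between -0.66 and 0.05, and those of the Foxp3 gate without cells carrying a UMI of another type between -1.19 and 0.07; H2-DMb1 was not tested there.

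The difference of the knockout effect between the Foxp3 gate and the Foxp3-negative Cd4 gate was tested itself, with the library as a term. edgeR called 7 of 13949 genes (0.0502%, 2 of them higher, 0.0143%), and 919 had an unadjusted p under 0.05. H2-Ab1 was 1 of the 2 called higher, with a difference of 0.55 on the log2 scale (SE 0.07, adjusted p = 0.0323). H2-Eb1 had 0.51 (SE 0.08, adjusted p = 0.0813) and H2-Aa 0.53 (SE 0.09, adjusted p = 0.0838), and the other 4 had between 0.32 and 0.56 with adjusted p between 0.203 and 0.753. The H2-Ab1 call was lost without knockout library 2 (adjusted p = 0.245) or 3 (0.0581) and without control library 1 (0.104) or 2 (0.0869). Without cells that held a C1q, B cell or dendritic UMI all 7 differences were negative, with H2-Ab1 at -0.71. Between the macrophage gate and the Foxp3-negative Cd4 gate, with cells in both left out, the differences of the 7 lay between 0.49 and 0.92, with adjusted p between 0.789 and 0.968, and edgeR called 0 of 13031 genes (0%, 704 at an unadjusted p under 0.05, 6 by DESeq2). The macrophage-gate cells left in this comparison included those that also met the Foxp3 gate. These were 44 of 89, 145 of 207 and 70 of 126 cells in knockout, against 60 of 119 and 74 of 218 in control.

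The lists of related genes had no calls in edgeR between knockout and control. In the Foxp3 gate the median log2 fold change was -0.07 over 20 pathway genes tested, 0.15 over 9 genes of the interferon-γ input and 0.11 over 9 class I genes, beside -0.00 over all genes. In the macrophage gate the medians were -0.01, 0.02 and 0.03, beside 0.01 over all genes.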

How the data were processed

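The authors deposited raw UMI counts per gene and barcode for 3 knockout and 2 control libraries, which the file headers credit to Cell Ranger 8.0.0 and which are whole, not normalized. Per the submitters' processing notes, Cell Ranger 8.0, build mm10 and Seurat 5.1.0 were used. From these counts, cells with at least 500 genes and under 10% mitochondrial UMIs were kept (1906 and 1133 barcodes failed each limit), gated by raw UMIs and summed per library and gate. Levels are CPM, UMIs per 1000000 UMIs of a sum. Tests ran over all genes with edgeR 4.0.16 (quasi-likelihood, TMM factors, filterByExpr, Benjamini-Hochberg, threshold 0.05), with the library as a term between gates; DESeq2 1.42.0 was an alternative. The naming rule always gives the 7 genes, the listed pathway, interferon-γ and class I genes that passed, and the 10 genes most alike in each correlation; lists were fixed, but the members and lists were chosen with earlier results of these data known. Correlations used log2 values with a pseudocount of 1 on CPM, over genes with at least 10 CPM or in at least 10% of cells. Shares have exact Clopper-Pearson 95% intervals, which cover counting error only, and were tested by two-sided exact permutation. The tests were tested on simulated data. Replicate numbers are shared by the groups but nothing in the labels ties the animals. The number of per-sample columns left unused was 0. Figures were drawn with matplotlib 3.10.9; sums used pandas 2.3.3, scipy 1.17.1, numpy 2.4.6 and Python 3.11.15, and the fits limma 3.58.1 and R 4.3.3. A gene of the likeness ranking and a background set of T cells are not reported here.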

Additional observations from a re-analysis of the deposited data

Results flagged for a closer look

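H2-Ab1, the I-A β chain, was the one of the 7 genes that edgeR called for a knockout effect that differed between the Foxp3 gate and the Foxp3-negative Cd4 gate by the test of the difference itself. The difference was 0.55 on the log2 scale (edgeR adjusted p = 0.0323). The call was lost in 4 of the 5 fits that left out 1 library, those without knockout library 2 or 3 or control library 1 or 2, with adjusted p up to 0.245, while DESeq2 called H2-Ab1, H2-Aa and H2-Eb1 and, with no filter on low counts, edgeR called 6 of the 7. It came from a knockout effect of 0.32 in the Foxp3 gate and one of -0.24 in the Foxp3-negative Cd4 gate, neither of which passed. The 10 macrophage markers summed to 1439, 1596 and 2238 CPM in the Foxp3 gate of knockout libraries, against 646 and 1310 in control. In the Foxp3-negative Cd4 gate they summed to 933, 1034 and 1430 in knockout, against 526 and 1208 in control. Without cells that held a C1q, B cell or dendritic UMI the difference for H2-Ab1 was -0.71. The part of macrophage transcripts in the result was not tested.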

How the results depend on the processing

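Depth limits what these data can show: knockout libraries hold few cells in the B cell gate, and T gate cells without other types' UMIs hold few class II UMIs. Of all recomputed values, 574 kept direction and side of the threshold, 33 lost and 16 gained a call, and 27 changed sign. The causes were not tested.

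Counts of calls moved most. DESeq2 called 48 genes between knockout and control in the Foxp3 gate, 58 in the Foxp3-negative Cd4 gate, 22 in the macrophage gate, 3 in the B cell gate and 122 over all cells, where edgeR called 0. It called 29 for the difference of effects between the T gates and 6 for that between the macrophage and Foxp3-negative Cd4 gates. With no filter on low counts these 7 counts were 452, 191, 145, 159, 6, 297 and 151. Leaving out 1 library gave 0 to 33 calls in the Foxp3 gate (33 without control library 2, 8 without knockout library 1), 0 to 2 in the macrophage gate, 0 to 10 in the B cell gate, 2 to 39 for the difference between the T gates and 0 to 52 for that with the macrophage gate, the highest without control library 2 each time. It gave 1836 to 2276 calls for macrophage over B cell gate and 1984 to 2813 for the Foxp3 over the Foxp3-negative Cd4 gate. Without T cell UMIs the macrophage gate had 5 calls. The difference between the T gates had 1 call without C1q or B cell UMIs and 3 without dendritic ones too, a setting added after the data had been seen.

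With the replicate number as a block, the knockout effect had 0 calls in the Foxp3 gate, 1 in the Foxp3-negative Cd4 gate, 0 in the macrophage gate, 85 in the B cell gate and 0 over all cells. Libraries with the same number had correlations of deviations between -0.21 and 0.20, so the number alone is shared and the block is given only here.

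Among the 7 genes between knockout and control, all 7 in the Foxp3 gate changed sign without C1q or B cell UMIs (H2-Aa -0.41, H2-Ab1 -0.25, H2-Eb1 -0.19, H2-DMa -0.32, H2-DMb1 -0.75, Cd74 -0.61, Ciita -0.0040). The levels of the 7 genes overlapped between groups in that setting. Without dendritic UMIs too H2-Aa had -1.02, H2-Ab1 -1.12, H2-Eb1 -1.19, H2-DMa -0.19 and Cd74 -0.81. H2-DMb1 in the whole gate ranged from -0.0018 to 0.69 with 1 library left out. In the Foxp3-negative Cd4 gate without other types' UMIs H2-DMb1 had 0.064 and Ciita 0.34. H2-DMa in the macrophage gate ranged from -0.080 to 0.18 with 1 library left out, had -0.0015 with the replicate block and -0.063 without T cell UMIs. In macrophage over B cell gate H2-DMa ranged from -0.20 to 0.19, H2-Aa passed with no filter (0.24, adjusted p = 0.0122) and without control library 1 (0.30), and Cd74 did not pass with no filter (-0.14). In the difference between the T gates without other types' UMIs the values were H2-Aa -0.74, H2-Ab1 -0.71, H2-Eb1 -0.70, H2-DMa -0.042, H2-DMb1 -0.21, Cd74 -0.74 and Ciita -0.30, whereas in the whole gates DESeq2 also called H2-Aa (0.54) and H2-Eb1 (0.51). In the Foxp3 over the Foxp3-negative Cd4 gate DESeq2 did not call H2-Aa (adjusted p = 0.0870). With no filter on low counts 6 of the 7 genes passed in each difference of effects. The knockout minus control share of cells with a class II UMI in the Foxp3 gate was -0.350 percentage points thinned to 1000 UMIs, -8.26 unthinned, -6.25 without C1q or B cell UMIs and -2.24 to 1.78 with 1 library left out. It was -0.0575 unthinned in the macrophage gate and -2.71 thinned to 1000 UMIs in the B cell gate. Not run were the B cell gate and the macrophage over B cell comparison without T cell UMIs, which left fewer than 20 cells in a library.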
